A study of Mus musculus with 8 samples.

Results

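The 32 genes described here encode glutamate receptors of mouse neurons and the auxiliary subunits that travel with them, out of 21631 protein-coding genes on chromosomes 1 to 19 and X. They were taken by name: 4 AMPA, 7 NMDA, 5 kainate, 1 delta and 7 metabotropic receptor genes, 6 genes of transmembrane AMPA receptor regulatory proteins (TARPs) and 2 cornichon genes. The readout was acetylation of lysine 27 on histone H3 (H3K27ac), a mark of active promoters and enhancers, mapped by chromatin immunoprecipitation and sequencing. The measure for a gene was the length of peaks in its span and 20 kb to each side, in bp per Mb of peaks in that library. It is a share of a library's peak length and not a height of acetylation, and it will be called coverage.

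The 8 libraries formed 4 groups of 2: MGE cultures with KCl, MGE cultures unstimulated, CTX cultures with KCl and CTX cultures unstimulated. The abbreviation MGE usually means medial ganglionic eminence, the embryonic source of many inhibitory neurons of the cortex, and CTX cortex. All 4 groups were primary cultures from C57/BL6 mouse embryos. On day 6 in vitro, activity was blocked overnight: 1 µM tetrodotoxin acted on sodium channels and 100 µM D-AP5 on the NMDA receptors described here. On day 7 the KCl groups received 55 mM KCl for 2 h, and the unstimulated groups were left untreated. The sources used here do not say whether the blockers stayed on during KCl. The labels differ on the material: the source of every library is given as embryonic day 16, titles of the CTX libraries name day 14, and MGE libraries carry the same cortical cell type label. Groups follow the titles. Replicates are called biological, but the labels do not say which preparations they came from, so p-values measure the spread between libraries, and some of it may be technical.

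Fast excitation in the brain runs through AMPA, NMDA and kainate receptors, channels that glutamate opens, and metabotropic receptors pass the signal on through G proteins. Subunit choice sets calcium entry, kinetics and position on the neuron, and interneurons are known to use other subunit mixtures than pyramidal neurons. TARPs and cornichons carry AMPA receptors to the surface and slow their closing.

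Peak lists held 36035 to 66827 peaks over 21.1 to 44.7 Mb, and read depth is unknown, so a gene missing from a list is not shown to lack acetylation. Marker genes separated the cultures as titled in part, with 6 of 12 MGE and GABAergic genes higher and 6 of 8 projection neuron genes lower in MGE. Over all windows tested, 11.2% were higher and 12.1% lower. Gad1, Slc32a1, Dlx1, Dlx2, Dlx5 and Dlx6 did not pass (log2 differences, MGE minus CTX, from -0.17 to 0.39). Slc17a7 (-0.51) and Bcl11b (0.26), of the projection neuron genes, did not either. Lhx6, a transcription factor of MGE-derived interneurons, averaged 179 bp per Mb in MGE and 1.67 in CTX libraries, and Nkx2-1, which specifies the MGE, was at 0 in all 4 CTX libraries. Emx1 and Neurod6, of cortical projection neurons, were at 0 in all 4 MGE libraries. Genes listed for other cell types also had peaks in both cultures, and cell composition was not measured. Oligodendrocyte lineage genes (6 listed) summed to 120 to 211 bp per Mb in MGE and 482 to 654 in CTX libraries, with 5 of the 6 lower in MGE and Cspg4 at 0 in all 4 MGE libraries. Astrocyte genes (6 listed) summed to 194 to 311 in MGE and 430 to 493 in CTX libraries, with 2 of 5 tested lower in MGE and Aqp4 at 0 in all 4 MGE libraries. Progenitor genes (6 listed) summed to 213 to 385 in MGE and 428 to 542 in CTX libraries, with 3 of 5 tested lower. Microglial genes (6 listed) summed to 129 to 204 in MGE and 82.2 to 134 in CTX libraries, with Csf1r higher in MGE, and endothelial genes (5 listed) to 43.5 to 140 in MGE and 106 to 241 in CTX libraries, with Pecam1 lower in MGE and 3 of the 5 at 0 in every library. CGE interneuron genes (5 listed) summed to 357 to 507 in MGE and 218 to 308 in CTX libraries, with Reln higher and Htr3a lower in MGE. Striatal genes (6 listed) summed to 147 to 395 in MGE and 325 to 528 in CTX libraries, with Ppp1r1b and Foxp1 lower in MGE. Of 7 activity-regulated genes used as a check of stimulation, 5 were higher with KCl in MGE and 2, Fos and Fosb, in CTX cultures, and the KCl libraries lay above the unstimulated ones at all 7 in both.

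Of the 32 genes, 31 passed the filter of a mean coverage of 20 bp per Mb. The exception was Grm6, a receptor of retinal bipolar cells, with a mean of 8.70 bp per Mb and 3 libraries at 0. The genes had a median window of 166 kb, against 57.3 kb over all genes, and 15 of the 32 windows contained another protein-coding gene. In the windows of Grin1, Grin2c, Grin2d, Grm2 and Cnih2, 48.3, 80.6, 78.4, 51.2 and 58.5% of the peak length lay in such neighbours, so those values describe the locus. Grik5 had 34.4% in its own span and 26.6% in neighbours. At Grm6, Grin3b and Cacng8, 0% lay in the gene's own span and 94.6, 36.4 and 6.21% in neighbours. Grin2c also had 0% in its own span. Values of these genes describe the locus too. Windows of Cacng7 and Cacng8 share 14.2 kb, with 0 kb of peaks in it.

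**Figure D1:**
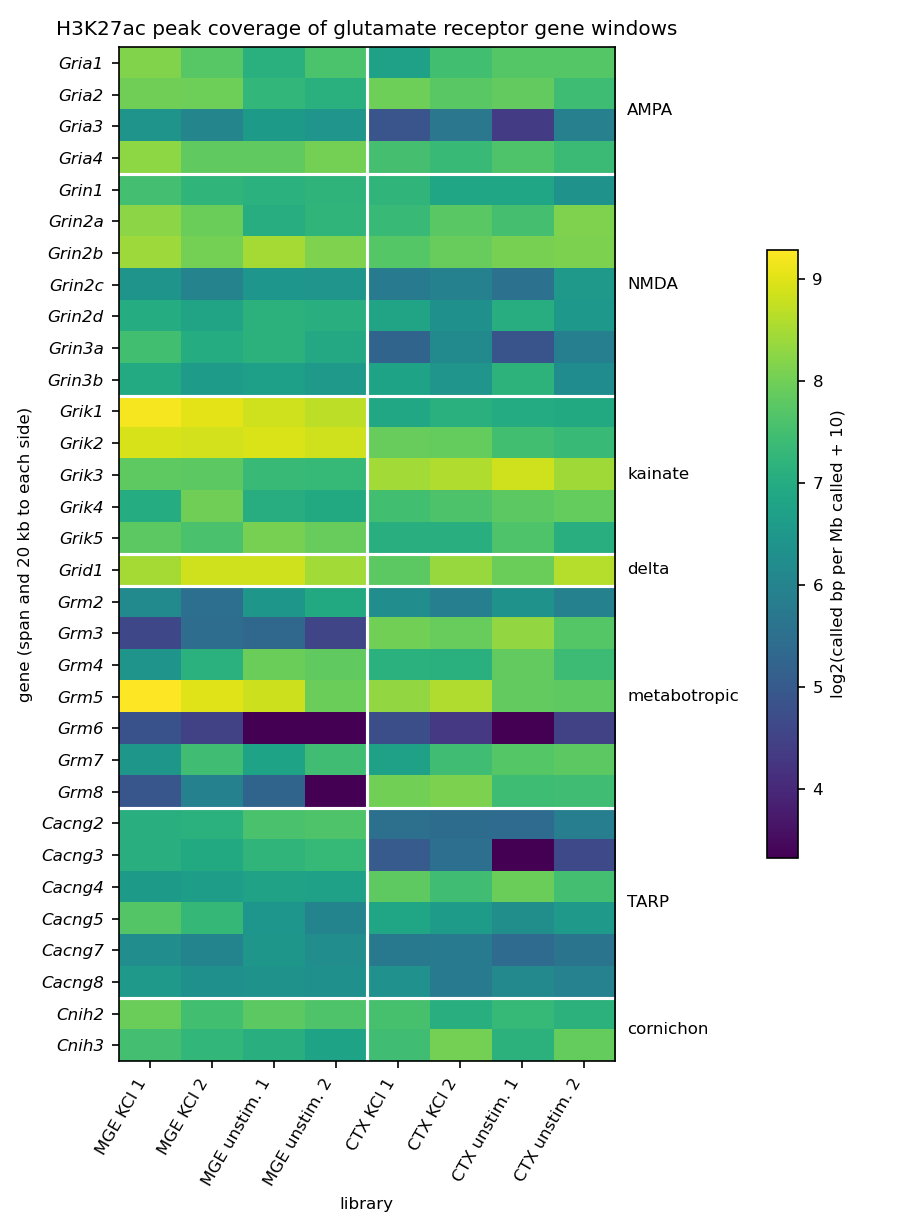
Coverage of the 32 gene windows in 8 libraries, as log2(called bp per Mb called + 10), with genes grouped by family down the page and libraries across, MGE left of CTX and KCl left of unstimulated. Grik1 and Grik2 are brightest in the 4 MGE libraries, and Grm3 and Grm8 in the 4 CTX libraries.

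The cultures differed at 15 of these genes. With limma at an adjusted p under 0.05, 11 of the 31 genes were higher in MGE than in CTX cultures and 4 were lower. Over all 14364 windows tested, 11.2% were higher and 12.1% lower. The windows of the receptor genes are longer (median 166 kb, against 57.3 kb over all genes). No share of all windows given here was matched for length. The 11 were Gria3, Gria4, Grin3a, Grik1, Grik2, Grik5, Grid1, Grm5, Cacng2, Cacng3 and Cacng7, and the 4 were Grik3, Grm3, Grm8 and Cacng4. The 4 MGE libraries lay above the 4 CTX libraries at 8 of the 31 genes and below them at 4, against 10.9 and 9.61% of all windows. The median log2 difference (MGE minus CTX) was 0.32 over the 31 genes and 0.13 over all windows. Equal peak length kept only the peaks of highest −log10 q in each library, up to 21.1 Mb. It moved the median of all windows to -0.13. This setting drops the weaker peaks of the longer lists and is not a scaling alone. Leaving out the scaling moved the median of all windows to -0.29. Without scaling, 3 of the 11 (Grik1, Cacng2 and Cacng3) and all 4 lower genes were still called. With peaks of −log10 q of at least 5 alone, 2 of the 15 were, Grik5 and Grm8, in a fit that called 114 windows higher and 222 lower. With those peaks the difference turned negative at Grin3a (-0.28), Grm5 (-0.74) and Cacng7 (-0.56), and the cause was not tested. With the gene span alone, without the 20 kb flanks, 11 of the 15 calls were kept, and Gria4, Grik5, Grid1 and Cacng7 were lost. Median centring lost Gria3, Grid1 and Grm5. Since the shares come from whole cultures of unmeasured composition, fewer cells with a mark and less of the mark per cell cannot be told apart. The marker values of other cell types above moved with the cultures, and their part in these differences was not tested.

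Kainate receptors, which modulate transmitter release and excitability, included large differences in both directions. Grik1 (chr16:87895901-88290863) encodes GluK1, a subunit known in interneurons. Its coverage was 578 and 514 bp per Mb in MGE KCl, 448 and 402 in MGE unstimulated, 109 and 128 in CTX KCl and 116 and 112 in CTX unstimulated libraries. Every MGE library lay far above every CTX library, and the log2 difference was 1.96 ± 0.15 (SE, adjusted p = 1.3e-08), 3.89-fold on a scale with 10 bp per Mb added. MGE libraries held 12 to 26 peaks there and CTX libraries 5 to 9. The surplus was spread over the locus: within 2 kb of a gene end coverage was 72.7 to 103 in MGE and 33.3 to 57.6 in CTX libraries, and elsewhere 302 to 475 in MGE and 58.0 to 94.9 in CTX libraries.

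Grik2 (chr10:49093680-49790161) encodes GluK2, the most widely used kainate subunit. It had 476 and 456 bp per Mb in MGE KCl, 482 and 452 in MGE unstimulated, 227 and 226 in CTX KCl and 169 and 153 in CTX unstimulated libraries. The 4 MGE values lay close together and above all CTX values, with a log2 difference of 1.24 ± 0.13 (adjusted p = 1.0e-06). The difference lay away from the gene ends: elsewhere in the window coverage was 417 to 441 in MGE and 128 to 201 in CTX libraries, while within 2 kb of an end it was 34.4 to 55.0 in MGE and 24.7 to 36.1 in CTX libraries, which overlap. Its promoter was in a peak in all 8 libraries. Grik5, which encodes GluK5, a subunit that needs a partner such as GluK2 to form a channel, had 209 and 179 bp per Mb in MGE KCl, 258 and 228 in MGE unstimulated, 124 and 125 in CTX KCl and 189 and 123 in CTX unstimulated libraries. The groups overlapped there and the log2 difference was 0.61 ± 0.17 (adjusted p = 0.0105). It was 0.47 (adjusted p = 0.0636) without CTX unstimulated library 2, and the call was also lost on the gene span alone (adjusted p = 0.0687).

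Grik3 (chr4:125490259-125714173), for GluK3, a subunit that responds to high glutamate, went the other way. It had 215 and 210 bp per Mb in MGE KCl, 153 and 148 in MGE unstimulated, 340 and 373 in CTX KCl and 454 and 337 in CTX unstimulated libraries. All MGE values lay below all CTX values, with a log2 difference of -1.02 ± 0.15 (adjusted p = 2.7e-05). Grik4, for the high-affinity subunit GluK4, had 112 to 245 bp per Mb in MGE and 167 to 226 in CTX libraries. Its log2 difference of -0.44 ± 0.19 did not pass (adjusted p = 0.102), and it was -0.69 without MGE KCl library 2. MGE KCl library 2, at 245, was the highest of the 8 and MGE unstimulated library 2 the lowest.

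The promoters of Grik2 and Grik3 are shown because they differ in how often they were in peaks: the Grik2 one in all 8 libraries and the Grik3 one in 2 CTX and 0 MGE libraries. Those 2 were library 2 of each CTX group, the longest lists (44.7 and 42.9 Mb). Within 2 kb of that end of Grik3, however, peaks lay in 3 MGE and 4 CTX libraries. Each promoter runs from 250 bases before to 50 after the transcript start, 5′ to 3′ on the gene's strand, from RefSeq on GRCm38.p6 (mm10), with CG dinucleotides, the sites of DNA methylation, in capitals.
Grik2, chr10:49788705-49789004, minus strand: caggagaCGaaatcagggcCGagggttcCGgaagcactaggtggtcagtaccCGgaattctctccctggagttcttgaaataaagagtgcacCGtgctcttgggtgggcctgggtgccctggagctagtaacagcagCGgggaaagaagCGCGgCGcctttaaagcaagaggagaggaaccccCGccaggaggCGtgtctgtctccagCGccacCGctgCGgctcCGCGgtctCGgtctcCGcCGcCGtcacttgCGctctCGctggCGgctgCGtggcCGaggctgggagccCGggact
Grik3, chr4:125490446-125490745, plus strand: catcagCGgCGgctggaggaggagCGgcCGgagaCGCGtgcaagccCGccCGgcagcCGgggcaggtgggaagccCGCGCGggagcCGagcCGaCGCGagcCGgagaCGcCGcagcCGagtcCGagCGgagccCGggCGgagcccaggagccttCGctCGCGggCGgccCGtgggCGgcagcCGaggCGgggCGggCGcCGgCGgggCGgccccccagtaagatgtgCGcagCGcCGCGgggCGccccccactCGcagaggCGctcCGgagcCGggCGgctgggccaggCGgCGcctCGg
The Grik2 promoter holds 26 CG dinucleotides and the Grik3 promoter 50, the highest of the 26 member promoters, whose median was 16 against 7.0 over all 32619 promoters.

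**Figure D2:**
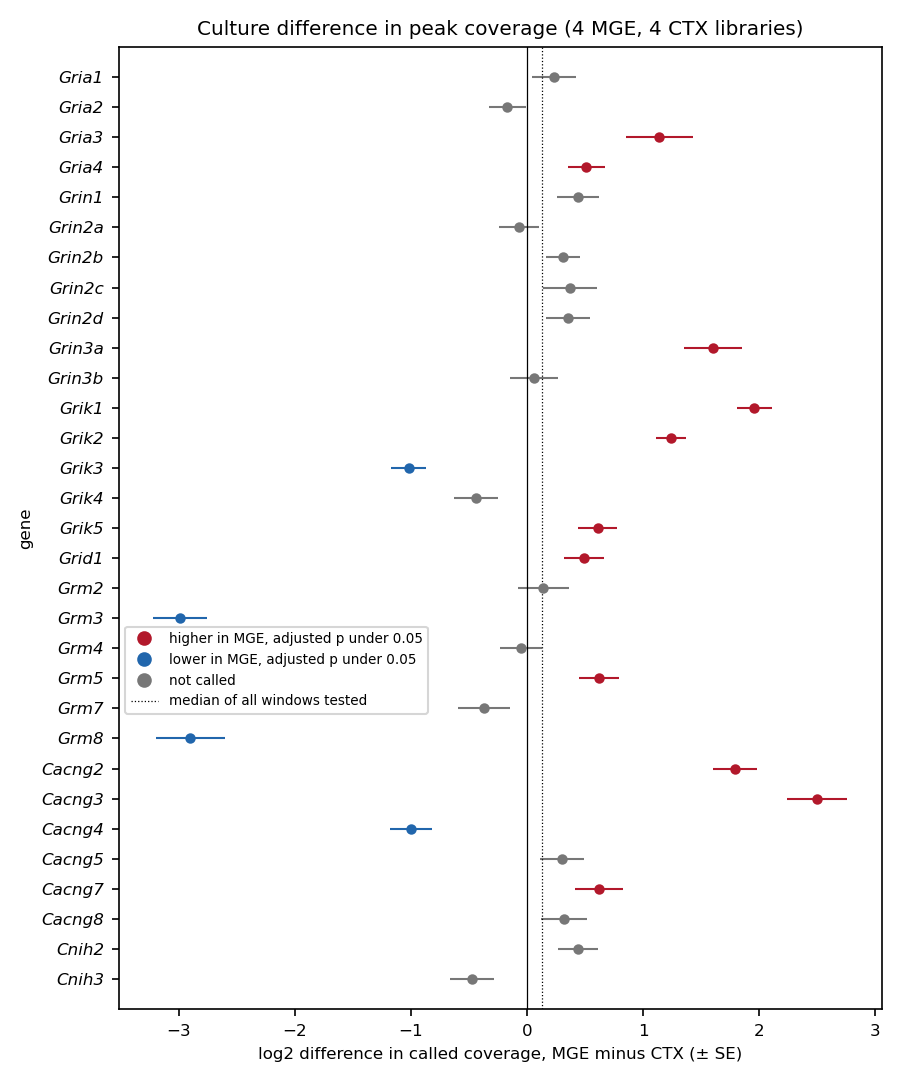
Log2 difference in coverage, MGE minus CTX cultures, for 31 genes, with bars of 1 SE from limma over 4 MGE and 4 CTX libraries. Cacng3 at 2.50 and Grik1 at 1.96 stand at the high end and Grm3 at -2.99 and Grm8 at -2.90 at the low end, and the dotted line is the median of all windows tested, 0.13.

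The metabotropic receptors held the largest differences of the list, both lower in MGE. Grm3 (chr5:9485236-9725352), a group II receptor that lowers cyclic AMP in neurons and in glia, had 14.6 and 33.8 bp per Mb in MGE KCl, 30.4 and 13.7 in MGE unstimulated, 249 and 227 in CTX KCl and 306 and 200 in CTX unstimulated libraries. The log2 difference was -2.99 ± 0.23 (adjusted p = 1.8e-08), which is 7.93-fold lower in MGE on the same scale. Each MGE library had exactly 1 peak in the window and each CTX library 11 to 13. The MGE peak lay at the gene end with the promoter, where coverage was 13.7 to 33.8 in MGE and 35.6 to 52.0 in CTX libraries. Elsewhere in the window all 4 MGE libraries were at 0 and the CTX libraries at 164 to 254.

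Grm8 (chr6:27275121-28135146), a group III autoreceptor, had 20 and 51.8 bp per Mb in MGE KCl, 27.7 and 0 in MGE unstimulated, 247 and 267 in CTX KCl and 162 and 166 in CTX unstimulated libraries. Its window, around a span of 860 kb, held 0 to 4 peaks in MGE and 10 to 23 in CTX libraries, and the log2 difference was -2.90 ± 0.30 (adjusted p = 6.6e-07). Away from the gene ends coverage was 0 to 27.7 in MGE and 109 to 212 in CTX libraries. Of 5 astrocyte genes tested, Slc1a3 (-1.87 ± 0.19, adjusted p = 6.2e-07) and Aldh1l1 were also lower in MGE. Gfap (-0.40), S100b (0.15) and Aldoc (0.27) were not called. Of 6 oligodendrocyte lineage genes 5 were lower, among them Cspg4 (0 in MGE and a mean of 93.3 bp per Mb in CTX libraries). The part of these cell types in the Grm3 and Grm8 values was not tested.

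Grm5, a group I receptor that releases calcium from stores, was higher in MGE. It had 612 and 496 bp per Mb in MGE KCl, 444 and 236 in MGE unstimulated, 308 and 373 in CTX KCl and 219 and 214 in CTX unstimulated libraries. The cultures overlapped, since MGE unstimulated library 2 lay among the CTX values, and the log2 difference was 0.62 ± 0.17 (adjusted p = 0.00862). The adjusted p was 0.0908 without MGE unstimulated library 1 and 0.0706 without CTX KCl library 1. Grm2, Grm4 and Grm7 had log2 differences of 0.14, -0.05 and -0.37 with adjusted p from 0.249 to 0.880. Grm7 was called without MGE KCl library 2 (-0.62, adjusted p = 0.0396).

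The promoters of Grm3 and Grm8 are shown because they mark the gene ends that held the MGE peaks at Grm3 and peaks of both MGE KCl libraries at Grm8. The Grm3 one was in a peak in 3 MGE and 4 CTX libraries, and the Grm8 one, the outermost of 3 listed for the gene, in 2 MGE and 3 CTX libraries. Conventions are as above.
Grm3, chr5:9725303-9725602, minus strand: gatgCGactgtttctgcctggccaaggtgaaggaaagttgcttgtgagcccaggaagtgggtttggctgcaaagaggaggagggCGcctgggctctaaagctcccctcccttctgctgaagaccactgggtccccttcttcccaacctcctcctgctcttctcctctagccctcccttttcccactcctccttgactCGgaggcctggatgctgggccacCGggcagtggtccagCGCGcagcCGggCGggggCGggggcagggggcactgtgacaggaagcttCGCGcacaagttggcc
Grm8, chr6:28135097-28135396, minus strand: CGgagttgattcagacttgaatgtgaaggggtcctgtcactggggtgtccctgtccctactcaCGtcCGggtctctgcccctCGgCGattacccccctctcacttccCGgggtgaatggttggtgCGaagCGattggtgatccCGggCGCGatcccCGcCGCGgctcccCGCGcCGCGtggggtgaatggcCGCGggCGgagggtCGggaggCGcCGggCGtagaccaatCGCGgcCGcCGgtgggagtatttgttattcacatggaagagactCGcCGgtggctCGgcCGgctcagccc
The Grm3 promoter holds 11 CG dinucleotides and the Grm8 promoter 33.

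TARPs, which bind AMPA receptors, also differed both ways. Cacng3 (chr7:122671744-122769393), for the TARP γ-3, had 123 and 112 bp per Mb in MGE KCl, 138 and 149 in MGE unstimulated, 22.5 and 35.5 in CTX KCl and 0 and 15 in CTX unstimulated libraries. Its log2 difference of 2.50 ± 0.26 (adjusted p = 5.1e-07) was the highest of the 31 genes. Away from the gene ends coverage was 47.2 to 91.3 in MGE libraries and 0 in all 4 CTX libraries.

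Cacng2 (chr15:77991919-78120220) encodes stargazin, the first TARP described. It had 126 and 130 bp per Mb in MGE KCl, 180 and 188 in MGE unstimulated, 35.9 and 33.0 in CTX KCl and 32.7 and 48.6 in CTX unstimulated libraries, a log2 difference of 1.79 ± 0.19 (adjusted p = 7.7e-07). Its promoter was in a peak in all 8 libraries and coverage near the gene ends overlapped, at 30.0 to 44.8 in MGE and 21.7 to 35.9 in CTX libraries. The difference lay elsewhere, at 80.8 to 146 in MGE and 0 to 26.9 in CTX libraries.

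Cacng4, for TARP γ-4, was lower in MGE, with 84.4 and 91.4 bp per Mb in MGE KCl, 97.2 and 97.1 in MGE unstimulated, 214 and 165 in CTX KCl and 236 and 171 in CTX unstimulated libraries (log2 difference -1.0 ± 0.18, adjusted p = 2.2e-04). Gene ends overlapped (45.3 to 69.3 in MGE and 48.7 to 90.0 in CTX libraries) and the rest did not (22.6 to 51.9 in MGE and 117 to 147 in CTX libraries). Cacng7 had 66.3 and 54.2 bp per Mb in MGE KCl, 78.5 and 65.7 in MGE unstimulated, 43.0 and 43.7 in CTX KCl and 32.1 and 39.3 in CTX unstimulated libraries. The groups did not overlap, but the call (0.62 ± 0.21, adjusted p = 0.0329) was lost, with adjusted p from 0.0553 to 0.138, without either MGE unstimulated library, without either CTX KCl library, without MGE KCl library 1 and without CTX unstimulated library 1. Cacng5 and Cacng8 had log2 differences of 0.30 and 0.32 (adjusted p = 0.277 and 0.274).

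The promoter of Cacng2 is shown because it was in a peak in every library although coverage of its window differed.
Cacng2, chr15:78119231-78119530, minus strand: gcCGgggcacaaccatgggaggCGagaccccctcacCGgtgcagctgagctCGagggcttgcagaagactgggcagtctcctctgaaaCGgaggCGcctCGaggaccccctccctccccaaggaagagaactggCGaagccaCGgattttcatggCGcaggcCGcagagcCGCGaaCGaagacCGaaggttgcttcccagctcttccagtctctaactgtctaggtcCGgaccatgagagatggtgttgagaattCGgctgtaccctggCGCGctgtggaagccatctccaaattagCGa
The Cacng2 promoter holds 20 CG dinucleotides. In its own list, the peak at the Cacng2 promoter had an authors' fold enrichment of 2.86 to 3.59 in MGE and 3.47 to 4.59 in CTX libraries, values that belong to each list and are not compared.

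**Figure D3:**
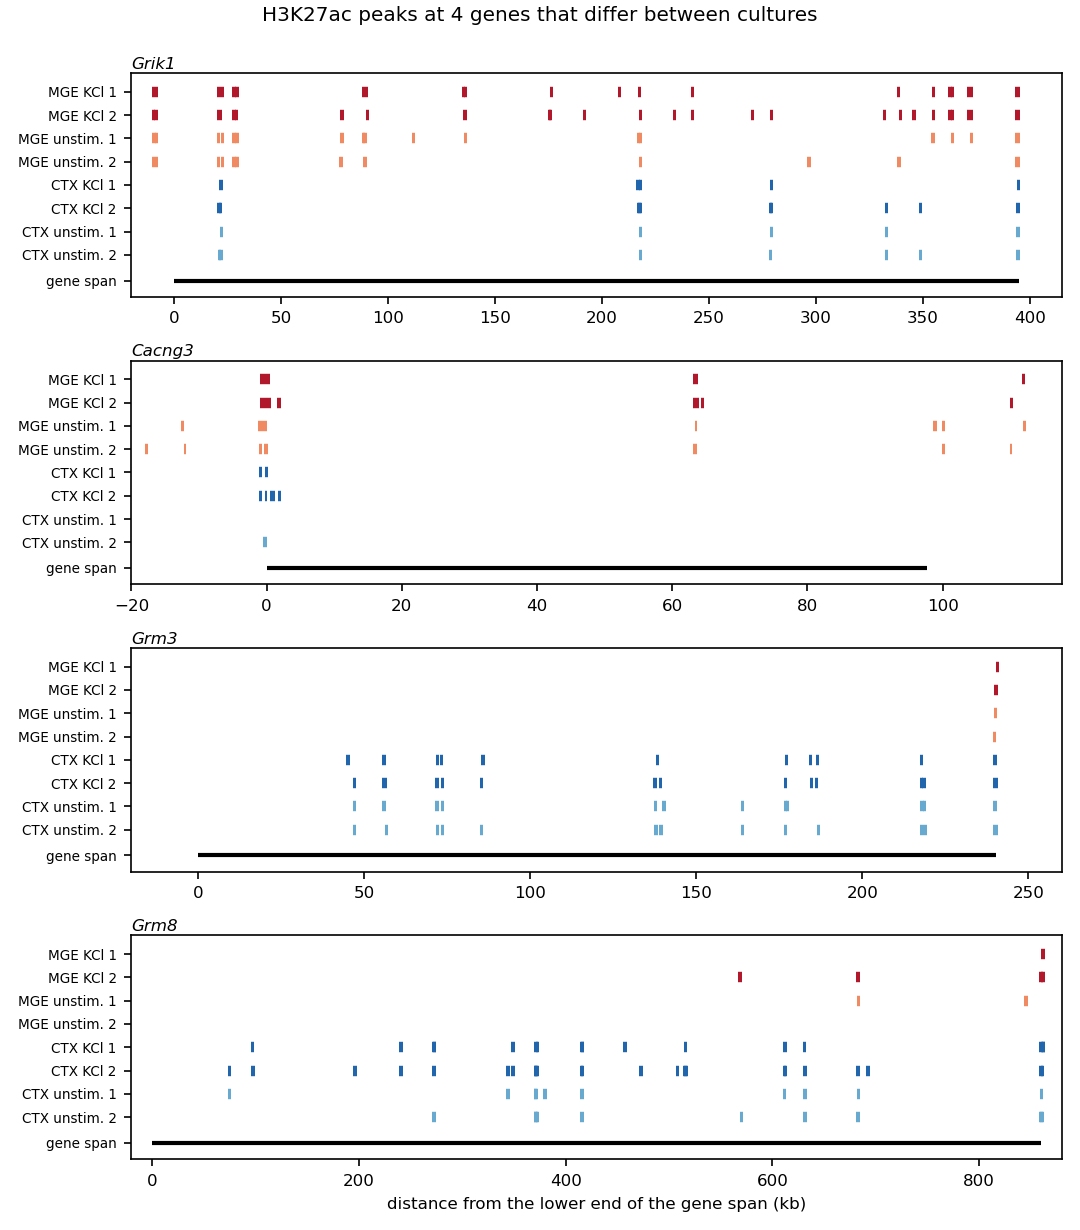
Peaks (bars) of each library at Grik1, Cacng3, Grm3 and Grm8, by distance from the lower end of the gene span in kb, with MGE rows above CTX rows, KCl above unstimulated and the gene span as a black line; narrow peaks are drawn at a minimum width. At Grm3 each MGE row has 1 peak, at the upper end of the gene, and each CTX row 11 to 13.

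Of the AMPA receptor genes, 2 of 4 were higher in MGE. Gria4, for GluA4, a fast subunit of many interneurons, had 297 and 217 bp per Mb in MGE KCl, 216 and 253 in MGE unstimulated, 174 and 153 in CTX KCl and 191 and 156 in CTX unstimulated libraries. All MGE values lay above all CTX values, by a log2 difference of 0.51 ± 0.16 (adjusted p = 0.0248). The adjusted p was 0.152 without MGE KCl library 1, 0.106 without MGE unstimulated library 2, 0.0976 without CTX KCl library 2 and 0.0860 without CTX unstimulated library 2.

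Gria3, for GluA3, had 74.3 and 55.5 bp per Mb in MGE KCl, 84.3 and 76.6 in MGE unstimulated, 19.6 and 41.1 in CTX KCl and 10.7 and 50.3 in CTX unstimulated libraries, again without overlap (log2 difference 1.14 ± 0.29, adjusted p = 0.00508). It was 0.95 (adjusted p = 0.0601) without CTX KCl library 1. Near the gene ends Gria1, Gria3 and Gria4 each had more coverage in every MGE than in any CTX library: 75.9 to 107 in MGE and 35.4 to 51.7 in CTX libraries at Gria1, 33.8 to 73.9 in MGE and 0 to 28.0 in CTX libraries at Gria3, and 76.2 to 116 in MGE and 53.2 to 73.7 in CTX libraries at Gria4. Gria2, whose edited subunit GluA2 blocks calcium entry, had a log2 difference of -0.17 ± 0.16 (adjusted p = 0.471), and Gria1, for GluA1, 0.23 ± 0.19 (adjusted p = 0.401). Where every list was cut to the same peak length, Gria3, Gria4, Grik5, Grm5 and Cacng7 kept a positive difference but were no longer called (adjusted p from 0.0740 to 0.605), and Gria4 was 0.12.

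Among NMDA receptor genes, Grin3a (chr4:49661611-49846023) was the one called. It encodes GluN3A, a subunit that lowers calcium entry and is abundant in early life. It had 168 and 120 bp per Mb in MGE KCl, 131 and 110 in MGE unstimulated, 28.0 and 61.4 in CTX KCl and 19.1 and 49.1 in CTX unstimulated libraries (log2 difference 1.60 ± 0.25, adjusted p = 5.7e-05). The groups did not overlap, and away from the gene ends coverage was 76.3 to 110 in MGE and 0 to 22.4 in CTX libraries.

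The obligatory subunit gene Grin1 had 171 and 139 bp per Mb in MGE KCl, 130 and 136 in MGE unstimulated, 139 and 103 in CTX KCl and 104 and 73.9 in CTX unstimulated libraries (log2 difference 0.44 ± 0.18, adjusted p = 0.0886). It was called with the replicate number as a block (adjusted p = 0.0418) and without CTX unstimulated library 1 (adjusted p = 0.0482). Grin2b, for GluN2B, the main early GluN2 subunit, had 329 and 251 bp per Mb in MGE KCl, 344 and 269 in MGE unstimulated, 198 and 230 in CTX KCl and 258 and 266 in CTX unstimulated libraries (0.31 ± 0.15, adjusted p = 0.151). Both overlapped between cultures. Grin2a, Grin2c, Grin2d and Grin3b had log2 differences from -0.07 to 0.37 and did not pass either.

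Grid1, for GluD1, which binds cerebellins at synapses, had 347 and 454 bp per Mb in MGE KCl, 455 and 339 in MGE unstimulated, 209 and 320 in CTX KCl and 234 and 383 in CTX unstimulated libraries. The cultures overlapped and the log2 difference was 0.49 ± 0.17 (adjusted p = 0.0483), a call with adjusted p of 0.125 without MGE KCl library 2, 0.145 without MGE unstimulated library 1, 0.230 without CTX KCl library 1 and 0.198 without CTX unstimulated library 1. The cornichon gene Cnih2 had 235 and 169 bp per Mb in MGE KCl, 209 and 191 in MGE unstimulated, 176 and 126 in CTX KCl and 149 and 132 in CTX unstimulated libraries (0.44 ± 0.17, adjusted p = 0.0708), and was called with the block (adjusted p = 0.0284), on the gene span alone and without MGE KCl library 2 or CTX KCl library 1. Cnih3 had a log2 difference of -0.47 ± 0.19 (adjusted p = 0.0839), which was -1.07 on the gene span alone (adjusted p = 0.0015) and also called at a pseudocount of 50 and without CTX unstimulated library 1.

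The partner genes of these receptors, 27 in all, included both directions as well. Of 25 tested, 5 were higher in MGE and 5 lower, and their median log2 difference was -0.03. The higher ones were Neto1, an auxiliary subunit of kainate receptors (1.34 ± 0.19, adjusted p = 2.1e-05), Shisa9, an AMPA receptor auxiliary subunit, and the scaffold genes Grip1, Grip2 and Pick1. The lower ones were Gsg1l, which slows AMPA receptor recovery (-1.85 ± 0.36, adjusted p = 5.7e-04), the lipase gene Abhd6, and the scaffold genes Dlg1, Dlg2 and Homer2. The delta receptor ligand gene Cbln1 was at 0 in all 4 MGE libraries and Cbln4 at 0 in all 4 CTX libraries. Both had a mean coverage under the filter of 20 bp per Mb and were not tested, so no culture difference is shown there.

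In MGE cultures some of these genes passed with limma for KCl. Grin2a and Cacng5 were higher with KCl and Grm4 was lower, 3 of 31, with 2.19% of all windows higher and 0.954% lower. The KCl libraries lay above the unstimulated ones at 9 genes and below them at 9, against 22.7 and 20.9% of all windows, and with 2 libraries against 2 the smallest exact two-sided p for a single gene is 0.33. The median log2 difference was 0.06 over the 31 genes and 0.00 over all windows.

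Grin2a (chr16:9567901-9996083) encodes GluN2A, the NMDA receptor subunit that replaces GluN2B as synapses mature. It had 294 and 237 bp per Mb in MGE KCl, against 122 and 140 in MGE unstimulated libraries, a log2 difference of 0.96 ± 0.25 (adjusted p = 0.0334). MGE KCl libraries held 11 and 12 peaks there and MGE unstimulated libraries 5 and 5. Away from the gene ends coverage was 216 and 183 in MGE KCl, against 58.5 and 64.1 in MGE unstimulated libraries, while near the ends it was 78.2 and 54.2 in MGE KCl, against 63.4 and 75.9 in MGE unstimulated libraries. In CTX cultures it was 153 and 205 with KCl and 174 and 269 unstimulated, where the groups overlapped (-0.27 ± 0.25, adjusted p = 0.858). The call was kept in 5 of 17 alternatives. It was lost at a pseudocount of 2, without the filter, on the gene span alone, for peaks of −log10 q of at least 5, at equal peak length, without scaling and under median centring. The call in MGE had adjusted p of 0.210 without MGE KCl library 1, 0.115 without MGE unstimulated library 1, 0.0554 without MGE unstimulated library 2, 0.0702 without CTX KCl library 1 and 0.0689 without CTX KCl library 2.

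Cacng5 (chr11:107874604-107915055), for TARP γ-5, a member of the type II group with weaker effects on the receptor, had 196 and 147 bp per Mb in MGE KCl, against 77.9 and 54.0 in MGE unstimulated libraries. The log2 difference of 1.26 ± 0.27 (adjusted p = 0.0124) was the highest of the 31 genes. It was 1.06 without MGE KCl library 1 and 1.03 without MGE unstimulated library 2 (adjusted p = 0.130 for each). The MGE call at Cacng5 was also lost for peaks of −log10 q of at least 5 and without scaling (adjusted p = 0.360 without scaling). It was kept at equal peak length (adjusted p = 0.0454) and under median centring (adjusted p = 0.0426). CTX cultures had 103 and 87.4 with KCl and 67.4 and 82.1 unstimulated, without overlap but also without a call (0.31 ± 0.27, adjusted p = 0.845).

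Regions of at least 1 kb gained with KCl, called in both MGE KCl libraries and in neither MGE unstimulated one, occurred at these same 2 genes, against 2.55% of all windows. The Grin2a region was chr16:9607001-9608000, inside the gene and 39.1 kb from the nearer gene end. Cacng5 had 2, at chr11:107890501-107891500 and chr11:107892001-107893000, both inside the gene and 15.9 and 17.4 kb from its nearer end. Peaks of both CTX KCl libraries also touched the second and no CTX unstimulated peak did. The calls and the regions come from the same peaks and are not independent of each other.

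One Cacng5 promoter is shown because the KCl difference did not lie in it: it was in a peak in 0 MGE and 1 CTX library.
Cacng5, chr11:107915006-107915305, minus strand: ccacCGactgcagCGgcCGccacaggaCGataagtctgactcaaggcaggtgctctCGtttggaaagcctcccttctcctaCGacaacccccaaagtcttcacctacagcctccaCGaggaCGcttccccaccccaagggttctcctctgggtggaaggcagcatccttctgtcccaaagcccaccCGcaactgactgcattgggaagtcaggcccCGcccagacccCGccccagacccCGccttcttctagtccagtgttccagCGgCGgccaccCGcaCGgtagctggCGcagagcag
It holds 17 CG dinucleotides and a match to the AP-1 motif TGANTCA at bases 37 to 43 counted from its 5′ end. AP-1 is the family of Fos and Jun. The motif was searched on both strands in all 300-base promoters and found in 7.85% of 32619 and in 3 of the 26 member promoters, the other two being those of Grin3b and Grm8, the Grm8 match at bases 7 to 13 of the sequence given earlier. The full cyclic AMP response element TGACGTCA, found in 1.80% of all promoters, was in 0 of the 26.

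**Figure D4:**
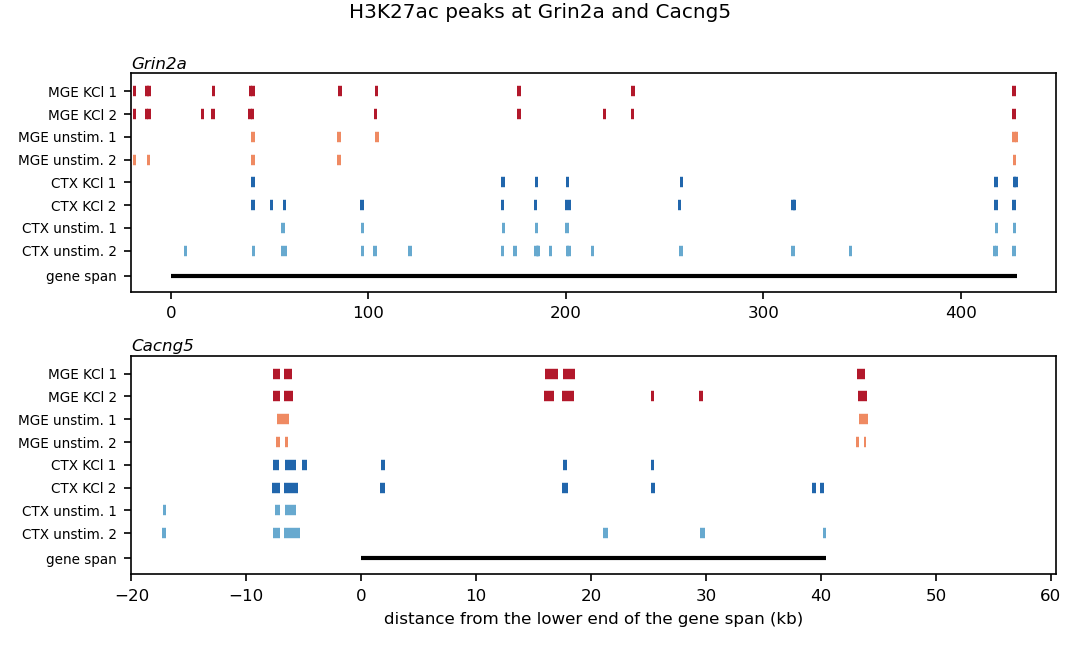
Peaks (bars) of each library at Grin2a and Cacng5, by distance from the lower end of the gene span in kb, with MGE rows above CTX rows, KCl above unstimulated and the gene span as a black line; narrow peaks are drawn at a minimum width. Inside Cacng5, both MGE KCl rows have a pair of peaks that the MGE unstimulated rows lack.

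Grm4 (chr17:27422387-27513826), a presynaptic group III receptor, fell with KCl in MGE to 75.4 and 129 bp per Mb, against 235 and 218 in MGE unstimulated libraries (-1.11 ± 0.26, adjusted p = 0.0195). CTX cultures had 130 and 128 with KCl and 222 and 159 unstimulated, also without overlap (-0.51 ± 0.26, adjusted p = 0.509). In MGE the log2 difference was -0.76 (adjusted p = 0.238) without MGE KCl library 1, and the adjusted p was 0.0615 without MGE unstimulated library 1, 0.0600 without CTX KCl library 1 and 0.0559 without CTX KCl library 2. Where every list was cut to the same peak length, Grm4 was called lower with KCl in CTX (-1.92 ± 0.34, adjusted p = 0.0452) and no longer in MGE (-1.58, adjusted p = 0.0848). The MGE call was also lost at a pseudocount of 2, without the filter and for peaks of −log10 q of at least 5. It was lost too without scaling (adjusted p = 0.588) and under median centring (adjusted p = 0.0705). On the gene span alone, at a pseudocount of 50 and with the replicate block it was kept.

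Other genes did not pass in MGE. Gria2 had 244 and 238 bp per Mb in MGE KCl, against 145 and 127 in MGE unstimulated libraries (0.78 ± 0.23, adjusted p = 0.0631). Gria2 was called with the replicate number as a block (adjusted p = 0.0366), without CTX unstimulated library 1 (0.0483), without library 2 of that group (0.0438) and at a pseudocount of 50. Gria1 had 275 and 203 in MGE KCl, against 128 and 182 in MGE unstimulated libraries (0.60 ± 0.27, adjusted p = 0.283). Grm5 had a log2 difference of 0.75 ± 0.24 (adjusted p = 0.0958). Grm8 had a log2 difference of 1.15 ± 0.43 (adjusted p = 0.176), which would be called at 1.67 without MGE KCl library 1 (adjusted p = 0.0430) and at 2.11 without MGE unstimulated library 1 (adjusted p = 1.8e-04). Grm2, a presynaptic group II receptor, had 60.7 and 35.0 bp per Mb in MGE KCl, against 79.2 and 112 in MGE unstimulated libraries (-0.89 ± 0.31, adjusted p = 0.137). Cacng2 was at -0.49 ± 0.27 (adjusted p = 0.424) and held the one lost region of the list, chr15:78006501-78007500 inside the gene, a kind found in 0.601% of windows. A peak of MGE KCl library 2 still touched it.

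Among marker genes of other cell types, Foxp1 of the striatal lineage was higher with KCl in MGE (1.81 ± 0.29, adjusted p = 0.00152), Vim of progenitors was higher (a mean of 37.6 bp per Mb with KCl and 0 unstimulated) and Htr3a of CGE interneurons was lower. Striatal genes (6 listed) summed to 277 and 395 in MGE KCl, against 147 and 162 in MGE unstimulated libraries. Foxp1 was the 1 gene called of the 4 tested, with means of 209 in MGE KCl and 50.3 in MGE unstimulated libraries. Ppp1r1b had means of 46.2 and 43.7, Drd1 40.7 and 26.3, and Ebf1 36.2 and 26.1. The part of these shifts in the receptor values was not tested. Of the 25 partner genes tested, 1 changed with KCl in MGE: Shisa6, an AMPA receptor auxiliary subunit, was lower (-1.49 ± 0.40, adjusted p = 0.0416).

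In CTX cultures 0 of the 31 genes passed with limma in either direction, 4 (12.9%, against 10.7% of all windows) had an unadjusted p under 0.05, and 0.362 and 0.160% of all windows were called higher and lower. The KCl libraries lay above the unstimulated ones at 6 genes and below them at 5, against 22.9 and 12.6% of all windows. The median log2 difference was -0.08 over the 31 genes and 0.07 over all windows. Cacng3 had 22.5 and 35.5 bp per Mb in CTX KCl and 0 and 15 in CTX unstimulated libraries (1.28 ± 0.36, adjusted p = 0.124). It would be called without CTX unstimulated library 2 (1.94, adjusted p = 0.00331) or without MGE unstimulated library 1 (adjusted p = 0.0443). Grm5 had 308 and 373 in CTX KCl and 219 and 214 in CTX unstimulated libraries (0.62 ± 0.24, adjusted p = 0.286). It thus had non-overlapping values with KCl above unstimulated in both cultures and no call in either, although it was called in MGE without MGE unstimulated library 1 (1.19, adjusted p = 0.00276) and at a pseudocount of 50.

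Gria1 had 96.3 and 169 bp per Mb in CTX KCl and 200 and 200 in CTX unstimulated libraries (-0.61 ± 0.27, adjusted p = 0.397). Gria2 had 239 and 207 in CTX KCl and 221 and 162 in CTX unstimulated libraries (0.22 ± 0.23). Grm7, a presynaptic group III receptor, had 96.8 and 165 in CTX KCl and 198 and 210 in CTX unstimulated libraries (-0.64 ± 0.32, adjusted p = 0.485), and in MGE 79.6 and 166 with KCl and 99.3 and 166 unstimulated. Gained or lost regions of at least 1 kb in CTX were found at 0 of the 32 genes, against 2.06 and 0.809% of all windows.

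**Figure D5:**
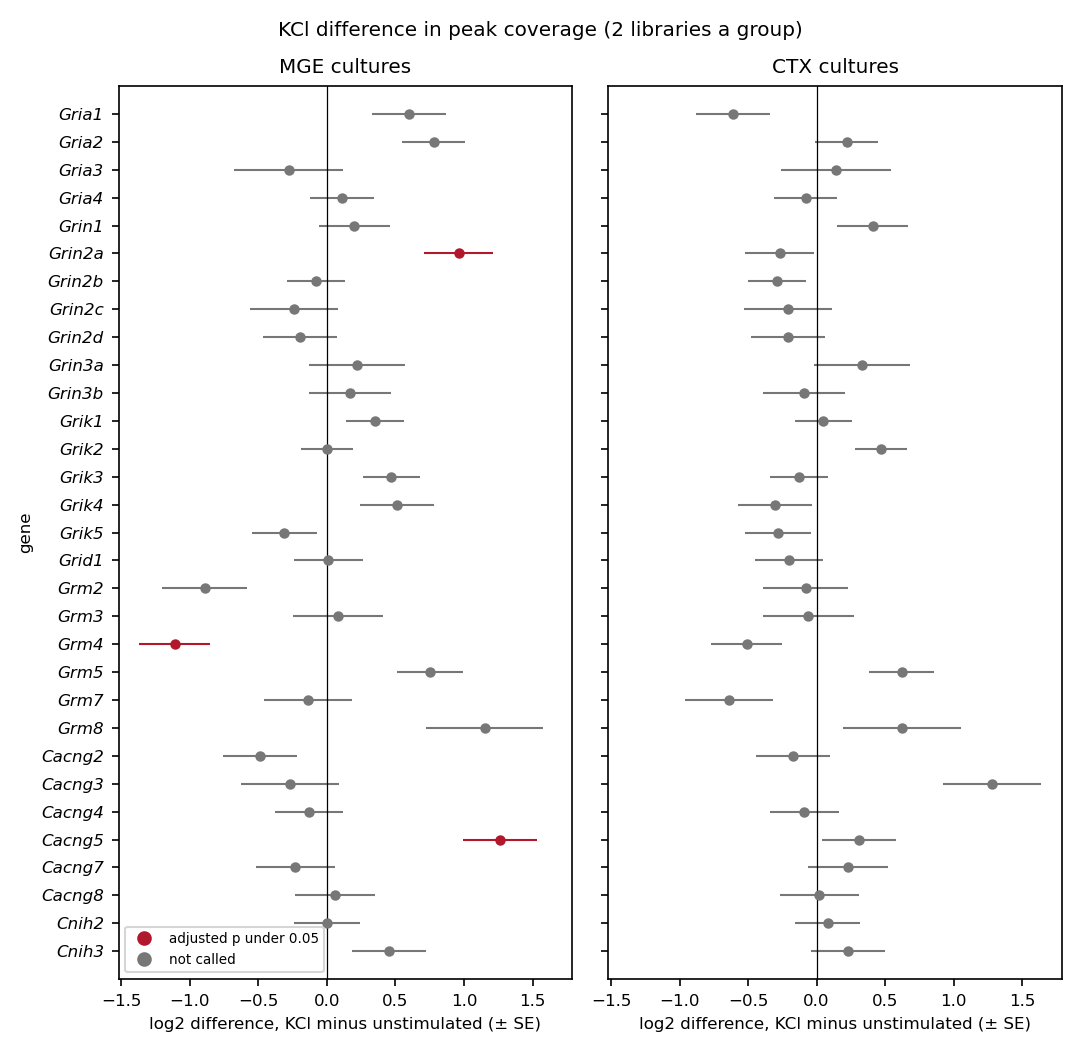
Log2 difference in coverage, KCl minus unstimulated, for 31 genes in MGE cultures (left) and CTX cultures (right), with bars of 1 SE from limma over 2 libraries a group. Grin2a and Cacng5 at the high side and Grm4 at the low side are coloured as called in MGE, and 0 genes are called in CTX.

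The KCl effect was not shown to differ between cultures at any of these genes. The test of the difference (MGE effect minus CTX effect) called 0 of 31, with 0.104 and 0.00696% of all windows called higher and lower, and 5 genes (16.1%) had an unadjusted p under 0.05, against 6.54% of all windows. These were Gria1 (1.20 ± 0.38, adjusted p = 0.361), Grin2a (1.24 ± 0.35, adjusted p = 0.278), Grik4 (0.81 ± 0.38, adjusted p = 0.737), Cacng5 (0.95 ± 0.38, adjusted p = 0.597) and Cacng3 (-1.55 ± 0.51, adjusted p = 0.403). Of the fits that left out a library, 1 called a member: without CTX unstimulated library 2, Cacng3 was at -2.21 ± 0.46 (adjusted p = 0.0309).

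Regions present in all 4 libraries of one culture and absent from the other lay at 3 of the 32 genes. In MGE, 1 lay in Grid1 (chr14:34919501-34920500, 99.5 kb from the nearer gene end), and in CTX 2 lay in Gria4 (chr9:4504001-4505000, 86.1 kb) and Cacng4 (chr11:107778001-107779000, 15.7 kb), with 0.938% of windows holding an MGE and 1.46% a CTX region of this kind. The CTX region in Gria4 thus sits in a gene whose coverage as a whole was higher in MGE. Counting bins with any overlap with a peak gave 11 genes with MGE and 12 with CTX regions, against 4.94 and 9.18% of all windows. Regions called in all 8 libraries lay at 14 of the 32 genes, 43.8% against 22.2% of all windows, which are shorter. They lay in the gene or within 2 kb of its end at 10, among them Gria2, Gria4, Grin2a, Grin2b, Grik1, Grik2 and Grm5. At the other 4 (Grin1, Grin2d, Grin3b and Cnih2) they lay outside, at Grin1 in Ssna1 and Anapc2, 18.2 kb away.

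The promoter table lists 26 promoters of 22 of the genes. Of these, 4 (Gria4, Grik2, Grik5 and Cacng2) were in a peak in all 8 libraries, 15.4% against 17.5% of all promoters, and 6 were in a peak in 0 libraries, 23.1% against 57.8%. A peak lay within 2 kb of a gene end in all 8 libraries at genes of every receptor class and of the TARPs, among them Gria1, Grin2b, Grik1, Grid1, Grm5 and Cacng7.

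Per 100 kb of window, so that genes of different length can be set side by side, the genes with no other protein-coding gene in the window had another order in each group of 2 libraries. Gria2 was highest in MGE KCl libraries with a mean of 148 bp per Mb, before Grik1 with 126 and Cnih3 with 105. In MGE unstimulated libraries Grm4 came first with 173, before Cacng2 with 110 and Cacng3 with 104. In CTX KCl libraries Cnih3, Gria2 and Grik3 had 138, 137 and 135, and in CTX unstimulated libraries Grik3, Grm4, Cnih3 and Gria2 had 150, 145, 119 and 118. The values of single libraries overlapped between Cacng2 and Cacng3 in MGE unstimulated libraries and between neighbours of both CTX orders.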

How the data were processed

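H3K27ac was mapped in 8 libraries with reads of 50 bp after fixation in 1% formaldehyde, per the labels' protocols. The submitters' processing notes name MACS3 3.0.0a7, Bowtie2 2.3.3, cutadapt 1.18, deepTools 3.4.3 and the mm10 build. Settings, input controls and duplicate handling were not given in these sources. The authors deposited 1 broad-peak list per library, called separately, with the word unfiltered in the peak names. Each peak carries a fold enrichment (a ratio) and −log10 p and q values as deposited by the authors, used here only within a list, and a score deposited by the authors that was not used. No counts were used, so read depth is unknown and no counting interval is given.

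From these lists, peak length in each gene span with 20 kb to each side (RefSeq, GRCm38.p6) was divided by the library's total peak length in Mb. Peaks on other chromosomes (29) were left out. log2(value + 10) of the 14364 windows with a mean of at least 20 bp per Mb was fitted in limma 3.58.1 (R 4.3.3, all 8 libraries, 1 mean per group, trended prior), with Benjamini-Hochberg adjustment over all windows and calls at 0.05. The scripts were tested on simulated data. Regions were runs of at least 2 bins of 500 bp, each at least 50% in peaks. Promoters came from a RefSeq table that holds 22 of the 32 genes, and for the others peaks within 2 kb of either gene end were used. The genes and marker lists were chosen with earlier results of these data known. Values in every library were given for principal subunit genes, for each gene called, and for the 3 highest and 3 lowest differences of each of the first 3 comparisons; region holders were named too. Alternatives changed the pseudocount, filter, window, peak threshold, scaling and block, and left out each library. Another cut each list to its peaks of highest −log10 q at equal peak length. Median centring was added after the data were seen.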

Additional observations from a re-analysis of the deposited data

How the results depend on the processing

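Counts below give all windows called higher and lower, then the receptor genes called. MGE cultures with KCl (314 and 137, with 2 and 1 genes) gave 168 and 46, with 1 and 0, at a pseudocount of 2; 509 and 286, with 4 and 1, at 50; 2 and 1, with 0 and 0, for peaks of −log10 q of at least 5; 35 and 35, with 1 and 0, at equal peak length; 2 and 0, with 0 and 0, without scaling; and 120 and 44, with 1 and 0, under median centring. Receptor calls were 1 and 0 without the filter and 1 and 1 for the gene span alone. Of the calls, 69.6% were higher, against 50.0% at equal peak length and 39.3% (210 and 325) without MGE KCl library 2. CTX cultures with KCl (52 and 23, with 0 and 0) gave 14 and 8 at a pseudocount of 2, 211 and 114 at 50, 0 and 0 for the stricter peaks, 169 and 73 with 0 and 1 (Grm4) at equal peak length, 0 and 0 without scaling, 4 and 3 under median centring, 22 higher without the filter, and 29 and 15 for the gene span. At 0 calls for the stricter peaks and without scaling, limma left 477 and 909 windows at an unadjusted p under 0.05.

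MGE minus CTX (1602 and 1742, with 11 and 4) gave 114 and 222, with 1 and 1, for the stricter peaks; 1065 higher, with 6, at equal peak length; 232 higher, with 3, without scaling; and 1017 and 1133 for the gene span. Higher calls were 47.9% of all calls, against 33.9% for the stricter peaks and 12.7% without scaling. With the stricter peaks Grin3a turned to -0.28, Grm5 to -0.74 and Cacng7 to -0.56, the values that changed sign among called genes. The difference of the KCl effects (15 and 1, with 0 and 0) gave 7 and 0 at a pseudocount of 2, 41 and 29 at 50, 0 and 0 for the stricter peaks, at equal peak length and without scaling, 2 and 0 under median centring and without the filter, and 8 and 0 for the gene span. Windows at an unadjusted p under 0.05 in limma numbered 449, 1165 and 255 at the 3 settings with 0 calls, in that order. The causes were not tested.

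Leaving out a library gave 150 to 516 and 51 to 325 windows, with 0 to 3 and 0 to 1 genes, for KCl in MGE; 0 to 282 and 2 to 78, with 0 to 1 higher genes, for KCl in CTX; and 2 to 88 and 0 to 75, with 0 to 1 lower genes, for the difference of effects. Calls of KCl in CTX turned to mostly lower without CTX KCl library 1 (0 and 2) or 2 (3 and 16), and those of the difference of effects without MGE KCl library 2 (25 and 75) or CTX unstimulated library 2 (16 and 55). Grin3a, Grik1, Grik2, Grik3, Grm3, Grm8, Cacng2, Cacng3 and Cacng4 were called between the cultures whichever library was left out.

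Among the receptor genes, counting bins with any overlap with a peak gave 9 with gained and 5 with lost regions in MGE (11.5 and 4.52% of all windows), 11 and 7 in CTX (11 and 6.59%), 11 with MGE and 12 with CTX regions (4.94 and 9.18%) and 22 with constant ones (51.9%). The stricter peaks gave 3 with regions gained in CTX (2.88%) and 7 with constant ones (13.8%). They also changed which genes held a region: Grm5, Cacng5 and Cnih3 gained one in MGE, Grid1 lost one, and Grik3 and Grm5 held the CTX ones. The receptor windows are longer than most, and these shares were not matched for length.

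The labels do not say that replicate numbers mark a shared preparation. Deviations from the group means correlated over 14364 windows at 0.04 between the MGE groups, 0.33 between the CTX groups, and 0.24, 0.23, -0.03 and -0.12 across cultures. With the replicate block, MGE minus CTX called 1947 and 1880 windows, with 13 and 4 receptor genes, KCl in MGE 335 and 164, with 3 and 1, KCl in CTX 41 and 17, and the difference of effects 10 and 0.

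Unknown read depth limits every value, the lists differ in length, and 2 libraries a group leave few degrees of freedom.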
